A study of Mus musculus with 4 samples.

Results

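To map N6-methyladenosine (m6A), the commonest internal mark of messenger RNA, in natural killer (NK) cells, methylated RNA immunoprecipitation sequencing (MeRIP-seq) was carried out on splenic NK cells of C57BL/6 mice. There were 4 libraries, 2 of fragments pulled down with an m6A antibody and 2 of input RNA that had not been pulled down. The study's methods state that the cells had been amplified in the animals with an IL-15 expression plasmid (pLIVE-IL-15) and sorted. The methods give an age of 6 to 10 weeks for the mice of the study in general, and the number of animals behind a library is not given in the sources used here. The labels give the strain and name no mutation.

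Each peak in the deposited list carries 2 gene identities. The first is the assigned gene, to which the peak annotation tool ChIPseeker attached the peak. The second is the named gene, whose transcript is spelled out in the text of labels such as exon or intron. Described here are the exon-labelled peaks for which these 2 genes differ. They numbered 602 of 5848 exon-labelled peaks (10.3%, 95% Wilson interval 9.54 to 11.1) and of 20727 distinct peaks (2.90%). They named 508 genes and were assigned to 492 genes, in 513 pairs, and lay at 561 separate loci once overlapping spans were merged. The other 5246 exon-labelled peaks named the gene they were assigned to and serve as the comparison. In 5 of the 602 peaks 1 identifier was not found in the annotation used here, so type and strand are given for 597. The list holds 1 fold enrichment and 1 p-value per peak for all libraries together and 0 columns per sample, so no error between replicates can be given and no test was run. Intervals cover counting error only.

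Mammalian genes often share ground. Antisense RNAs are transcribed from the strand opposite to another gene, small RNAs such as microRNAs (miRNAs) and small nucleolar RNAs (snoRNAs) are cut from the introns or exons of longer host transcripts, and many pseudogenes and single-exon transcripts lie within the introns of larger genes. m6A is written by the METTL3 and METTL14 complex on adenosines in short sequence contexts, of which GGACT in DNA letters is among the best known. MeRIP-seq resolves the mark to a region rather than a base, and the list has no strand column. Whether the libraries kept strand is not given in the sources used here, so reads of a gene and of a partner on the other strand cannot be told apart.

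The sequence around a GGACT site shows what a missing strand leaves undecided, since the site can lie on the strand of either gene. The lines below give the site nearest the centre of the exonic part for the most significant opposite-strand pairs that held one with at least 10 nt of exon on each side, and then for 2 same-strand pairs chosen in the same way. Each window was read 5′ to 3′ on the strand that carries the site (GRCm38), with the motif in capitals.
Jund and Gm11175, chr8:70700010-70700034, minus strand, that of the assigned gene: acgtggctgaGGACTttctgtttga
Gm43972 and Gm10062, chr5:25660572-25660596, minus strand, that of the assigned gene: tggtattgtaGGACTctaatgagcc
Gm43183 and Gm43184, chr5:43948348-43948372, plus strand, that of the named gene: gtgactaagaGGACTgcggggaggg
1700058P15Rik and Vasp, chr7:19259657-19259681, minus strand, that of the assigned gene: ataagctgcaGGACTcagttctctc
Kcnq1ot1 and Kcnq1, chr7:143225430-143225454, minus strand, that of the named gene: ggagagagctGGACTgctgacagag
Gm47061 and Tfap2a, chr13:40725047-40725071, minus strand, that of the assigned gene: agaacatacaGGACTgtatttattc
Gm43112 and Cdk14, chr5:4820988-4821012, plus strand, that of neither gene: ataaaatcagGGACTtcagctgctt
Gm44187 and Rab7, chr6:88041514-88041538, plus strand, that of neither gene: acctctggctGGACTcccaccctgt
In 4 of the 6 opposite-strand pairs shown, the printed site lay on the strand of the assigned gene. Sites were sought only in exons of the named gene, so they need not lie in exons of the assigned gene. The site at 1700058P15Rik and Vasp lay outside Vasp exons, as the exons of that pair shared no base of the span. The Jund peak held 0 GGACT on the strand of Jund and 1 on the other, whereas the Gm43183 peak held 1 on the strand of Gm43183 and 0 on the other. A match describes the letters of the window and does not show that the adenosine was methylated.

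Over all 597 peaks, the bases in exons of the named gene held 0.890 GGACT per kb on its own strand (95% Poisson interval 0.804 to 0.984) and 0.821 (0.738 to 0.911) on the other. For the 382 pairs on opposite strands these densities were 0.892 (0.777 to 1.02) and 0.897 (0.780 to 1.03). For the 215 pairs on the same strand they were 0.887 (0.760 to 1.03) and 0.728 (0.614 to 0.859). Exon peaks that named their own gene had 0.905 (0.872 to 0.938) and 0.863 (0.831 to 0.895). The paired intervals overlapped in each of the 4 groups. Searched over the whole genomic span, introns included, the 597 peaks had 0.752 sites per kb on the strand of the named gene and 0.784 on the other. A window of 101 nt at the centre of the exonic part held a GGACT on the strand of the named gene in 9.72% of the 597 peaks (7.59 to 12.4) and in 9.67% of own-gene exon peaks (8.90 to 10.5). On the other strand it held one in 8.21% (6.26 to 10.7) and 8.45% (7.72 to 9.23). Among peaks with a p-value under 0.001 the shares on the strand of the named gene were 5.78% of 277 (3.59 to 9.18) and 9.57% (8.50 to 10.8), and on the other strand 7.94% (5.30 to 11.7) and 8.58% (7.56 to 9.71).

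The named genes were mostly not protein-coding, and most lay on the strand opposite to the assigned gene. Of the 597 peaks, 382 (64.0%, 60.1 to 67.7) joined genes on opposite strands and 215 (36%) genes on the same strand. The named gene was protein-coding in 140 (23.5%, 20.2 to 27), against 62.5% of own-gene exon peaks, whereas the assigned gene was protein-coding in 385 (64.5%). A non-coding named gene with a protein-coding assigned gene made up 313 peaks (52.4%), and the reverse arrangement made up 68 (11.4%). In 72 peaks (12.1%) both genes were protein-coding, and in 144 (24.1%) neither was.

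**Figure D1:**
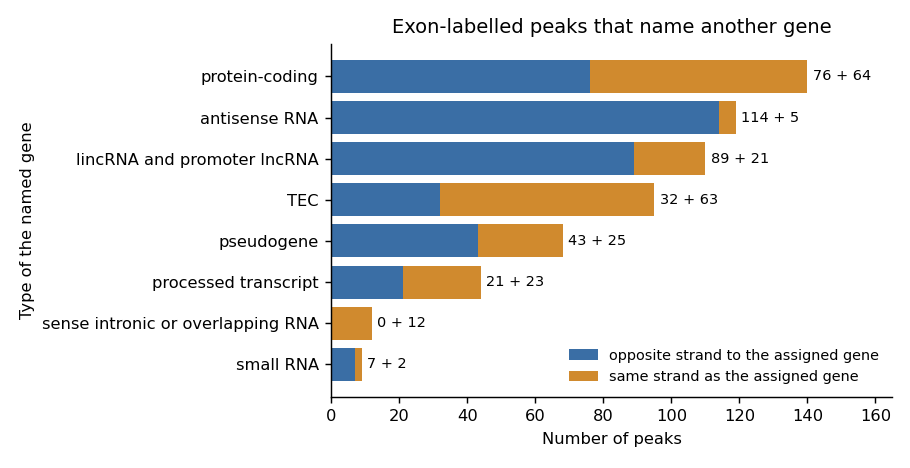
Number of peaks (x axis) by the type of the named gene (y axis), with peaks whose named and assigned genes lie on opposite strands in blue and on the same strand in orange, and both counts printed beside each bar. Antisense RNAs were on the opposite strand in 114 of 119 peaks and TEC models on the same strand in 63 of 95.

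Relative strand followed the type of the named gene, in part by definition. Antisense RNAs, 119 peaks, lay opposite to the assigned gene in 114 and on its strand in 5, and 109 of them were assigned to a protein-coding gene. Long intergenic and promoter-associated non-coding RNAs made up 110 peaks, 89 opposite and 21 same. TEC models, single transcripts that still await experimental proof, made up 95 peaks, of which 63 were on the same strand. Of those 63 peaks, 62 lay in introns of the assigned gene and 1 overlapped an exon of it. Pseudogenes made up 68 peaks, 43 opposite and 25 same, and 52 of them were assigned to a protein-coding gene. Processed transcripts divided into 21 and 23. All 12 peaks that named a sense intronic or sense overlapping RNA were on the same strand, as that annotation class requires. The 9 peaks that named a small RNA divided into 7 and 2. Protein-coding named genes were split more evenly, with 76 opposite and 64 same.

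Nearly all peaks overlapped the assigned gene but often not its exons. Of the 597, 595 overlapped the body of the assigned gene, and 2 lay outside it. A total of 283 (47.4%, 43.4 to 51.4) overlapped an exon of the assigned gene by at least 1 nt, and 312 (52.3%) lay wholly in its introns. With 50% of the span required in exons of the assigned gene the share was 16.8%, and among spans of at most 500 nt, a limit chosen after seeing the data, it was 31.4%. In 204 peaks (34.2%) the exons of both genes shared bases of the span. In another 79 (13.2%) the span overlapped exons of the assigned gene only in bases outside exons of the named gene. Such bases can be counted because the span runs across introns. In 310 peaks (51.9%) the span held exons of the named gene and of no other gene. The named gene lay within the assigned gene in 295 (49.4%), the assigned gene within the named gene in 124 (20.8%), and the genes overlapped in part in 170 (28.5%). Named genes were shorter, with a median length of 4755 nt against 26459 nt for the assigned genes.

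The ends of the spans matched the named gene more often, a contrast partly set by the choice of peaks. An exon label needs the span to touch an exon of the named gene, and no such condition holds for the assigned gene. Both ends lay in exons of the named gene in 513 peaks (85.9%, 82.9 to 88.5) and in exons of the assigned gene in 134 (22.4%, 19.3 to 26.0). These comprised 449 peaks (75.2%) whose ends lay in exons of the named gene alone, 64 (10.7%) of both genes and 70 (11.7%) of the assigned gene alone. The remaining 14 (2.35%) had both ends in exons of neither. Of own-gene exon peaks, 98.2% had both ends in exons of their gene. On opposite strands the ends belonged to the assigned gene alone in 61 of 382 peaks (16.0%, 12.6 to 20.0), and on the same strand in 9 of 215 (4.19%, 2.22 to 7.76). An edge of the span fell exactly on an outer end of the named gene in 173 peaks (29.0%) and of the assigned gene in 60 (10.1%), and both edges fell on the 2 outer ends in 37 peaks for each. Among own-gene exon peaks an edge fell on an outer end of the gene in 29.4% and both edges did in 19.0%.

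**Figure D2:**
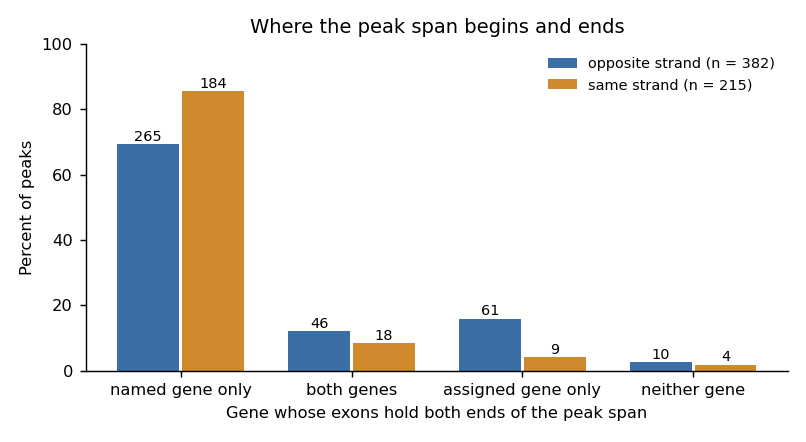
Percent of peaks (y axis) by the gene whose exons hold both ends of the span (x axis), for 382 opposite-strand pairs in blue and 215 same-strand pairs in orange, with the number of peaks above each bar. Most spans began and ended in exons of the named gene alone, 265 and 184 peaks, and spans that did so in the assigned gene alone numbered 61 and 9.

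A transcription start of the assigned gene was not more often the nearer one to the edges of the span, but it more often lay inside the span. Measured from the nearest edge of the span, with a start inside the span counted as 0, the assigned gene was nearer in 239 peaks (40.0%, 36.2 to 44.0), the named gene in 276 (46.2%), and they were equally near in 82 (13.7%). The median distance was 1148 nt to a start of the assigned gene (interval of the median 717 to 1734) and 772 nt to a start of the named gene (671 to 939). The assigned gene owned the nearest start of any gene in 312 peaks (52.3%) and the named gene in 333 (55.8%), ties counted for each. The assigned gene had a start inside 213 spans (35.7%) and the named gene inside 83 (13.9%). The largest distance to an assigned start was 3132248 nt and to a named start 123103 nt. Measured from the centre of the span instead, the assigned gene was nearer in 47.6%.

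**Figure D3:**
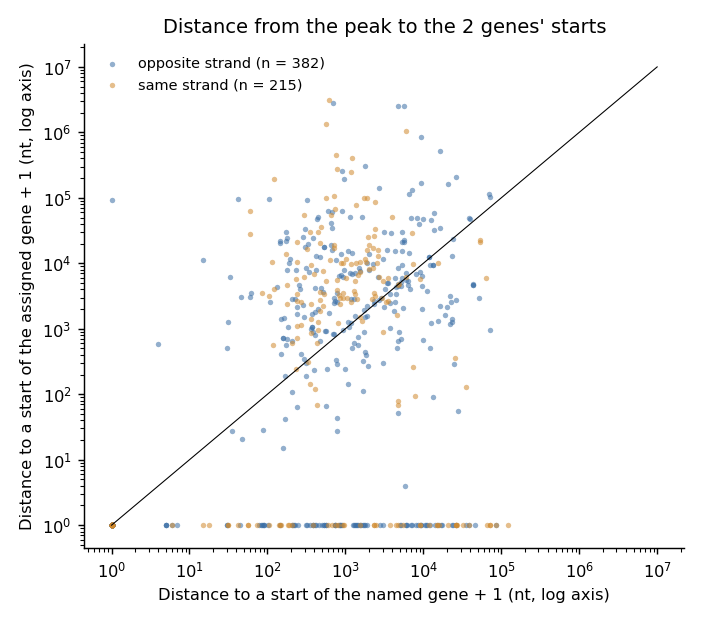
Distance from each of 597 peaks to the nearest start of the named gene (x axis) and of the assigned gene (y axis), in nt plus 1 on log axes, with opposite-strand pairs in blue, same-strand pairs in orange and a line at equal distance. Points on the lowest row have a start of the assigned gene inside the span (213 peaks), and the highest point lies 3132248 nt from a start of the assigned gene, against at most 123103 nt for the named gene.

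The exon that a peak named was more often the last or sole exon of its transcript than in own-gene exon peaks. The transcript had 1 exon in 245 of the 597 peaks (41.0%, 37.2 to 45.0), against 27.7% (26.5 to 28.9), and the exon was the last in 394 (66.0%, 62.1 to 69.7), against 47.3% (45.9 to 48.6). A sole exon counts as the last one too, and the groups were not matched for gene type. The median span was shorter, 335 nt (271 to 417) against 456 nt (430 to 483). The lower quartiles were 150 and 151 nt, and the upper quartile was larger, 2151 against 1890 nt. Spans of the peaks described ranged from 57 to 666481 nt because introns are counted.

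Fold enrichment, the ratio of immunoprecipitate to input reads made by the authors, had the same median as in other exon peaks, whose mix of gene types differed. The median was 5.69 over the 602 peaks (interval of the median 5.22 to 7.59, interquartile range 2.70 to 13.3, extremes 1.09 and 664). It was 5.69 over own-gene exon peaks too (5.69 to 6.45, interquartile range 2.17 to 15.2), and 2.66 over all distinct peaks. A fold enrichment of at least 5, the cutoff with which the study chose genes for pathway analysis, was reached by 336 of the 602 (55.8%, 51.8 to 59.7), against 54.0% of own-gene exon peaks and 34.6% of all distinct peaks. A peak-calling p-value under 0.001 was reached by 277 (46.0%, 42.1 to 50), against 49.9% of own-gene exon peaks and 61.5% of all distinct peaks. Both were met by 171 peaks (28.4%). The commonest combination was a fold of 9.48 with a log10 p of -1.69, in 48 peaks, followed by 11.4 with -2.09 in 29 and 13.3 with -2.50 in 23. The value 5.69 recurred too, and filled percentiles 48 to 50 of own-gene exon peaks and 50 to 52 of opposite-strand pairs. Equal medians and shared interval ends can therefore be ties on repeated values.

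Same-strand pairs had a median fold of 9.48 (5.69 to 9.48) and opposite-strand pairs one of 5.69 (4.43 to 7.33), so the intervals overlapped. By the type of the named gene, the median was 3.79 for protein-coding genes (2.84 to 4.84), 5.22 for antisense RNAs, 5.38 for pseudogenes, 10.8 for long intergenic and promoter RNAs, 11.4 for TEC models (9.48 to 11.4) and 15.2 for the 9 peaks of small RNAs (2.14 to 37.9). Own-gene exon peaks had medians of 3.58 in protein-coding genes, 9.48 in antisense RNAs and 13.3 in pseudogenes. Their medians were 11.4 in long intergenic and promoter RNAs, 19.0 in TEC models and 13.3 in small RNAs. Over all named genes that are not protein-coding, the median was 9.01 (6.16 to 9.48), against 11.4 (11.4 to 13.3) in own-gene exon peaks. These are values of 1 combined list, and no difference between them was tested.

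**Figure D4:**
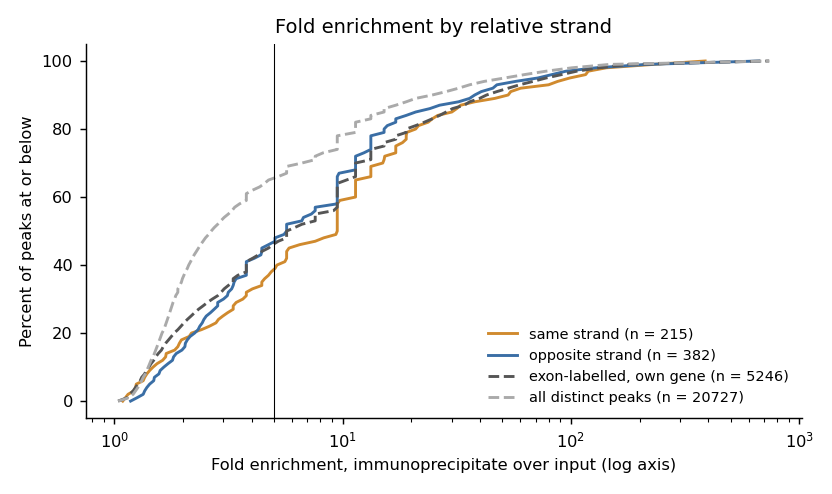
Percent of peaks at or below each fold enrichment (x axis, log scale) for same-strand pairs (orange), opposite-strand pairs (blue), own-gene exon peaks (dark dashes) and all distinct peaks (light dashes), with a vertical line at 5. The medians were 9.48, 5.69, 5.69 and 2.66 in that order.

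The most significant of these peaks joined the transcription factor gene Jund with an antisense model on its other strand. The peak (chromosome 8, 70699681 to 70700080, GRCm38) named the single exon of Jund (ENSMUSG00000071076, plus strand) and was assigned to Gm11175 (ENSMUSG00000080058, minus strand). Its log10 p was -762 and its fold enrichment 2.08. All 400 nt lay in exons of both genes, and its right edge was the outer end of Gm11175. Jund encodes an AP-1 subunit, and 2 other peaks were assigned to it with fold enrichments of 1.66 and 2.36. A further peak was assigned to Gm11175 with a fold of 2.54.

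The same arrangement recurred at Cebpb, which encodes a C/EBP transcription factor and consists of 1 exon. Its peak (chromosome 2, 167689642 to 167689822) was assigned to Tmem189 on the other strand, with a fold of 4.50, a log10 p of -65.9 and all 181 nt in exons of both. A second peak at Cebpb that was assigned to it had a fold of 2.02. The peak at Wrnip1, a gene of the replication stress response, had a fold of 7.15 and a log10 p of -12.1, with all 281 nt shared with D930007J09Rik. Peaks of this kind also lay at Gimap1, a lymphocyte GTPase, assigned to Gimap1os with folds of 1.39 in both of 2 near-identical spans, and at H2-Q4, a class I major histocompatibility gene, assigned to Gm11131 with folds of 1.5 and 1.43. H2-Q4 has close copies that may share its reads. Each of these spans lay in an exon of its named gene, and in the absence of strand the reads cannot be divided between the partners.

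The highest fold enrichment lay at Rabgap1, a GTPase-activating protein for Rab proteins, in a peak assigned to Strbp, which encodes an RNA-binding protein. The peak (chromosome 2, 37490992 to 37491890) had a fold of 664 and a log10 p of -534. All 899 nt lay in an exon of Rabgap1 (ENSMUSG00000035437, plus strand) and 0 nt in exons of Strbp (ENSMUSG00000026915, minus strand). Its nearest edge was 41 nt from a start of Rabgap1 and 94628 nt from a start of Strbp. A second peak of the pair had a fold of 39.8 and 1679 nt in Rabgap1 exons. Both peaks named a transcript of 1 exon that is annotated as a retained intron, a form that keeps intron sequence. Neither label thus places its span in an exon of a coding transcript. No peak in the list was assigned to Rabgap1, whereas Strbp was assigned 4 others, with folds from 1.96 to 146.

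**Figure D5:**
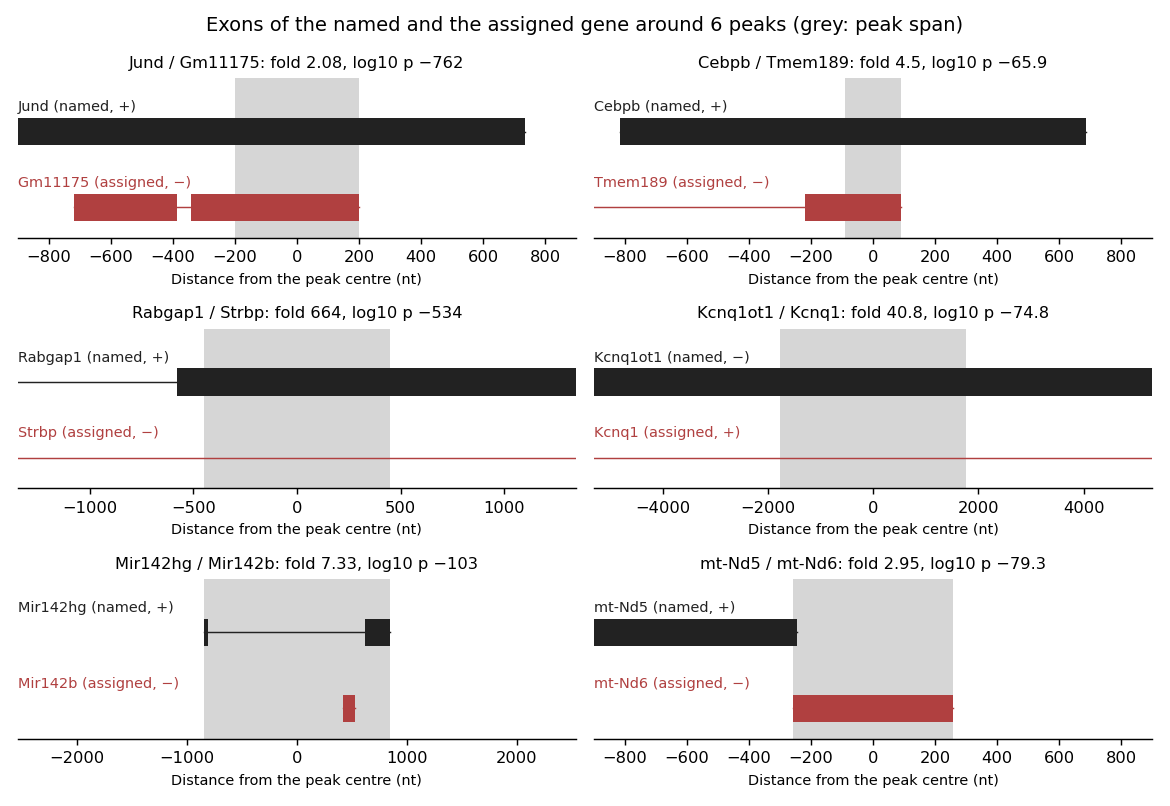
Exons (bars) of the named gene (black, upper) and the assigned gene (red, lower) around 6 peaks, against the distance from the peak centre in nt, with the peak span in grey and the strand in brackets. The Jund and Cebpb spans lay in exons of both genes, the Rabgap1 and Kcnq1ot1 spans in exons of the named gene alone, the Mir142hg span ran across an intron that holds Mir142b, and the mt-Nd5 span matched mt-Nd6 and overlapped 14 nt of mt-Nd5.

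The next highest folds mostly named transcripts without a known product. Ptprb, a receptor tyrosine phosphatase gene, had a peak of fold 387 (log10 p -142) over 19805 nt of genome, of which 1949 nt were exonic, and it was assigned to a snoRNA gene, Gm26495, that lay between those exons. Gm20342 had a fold of 341 within an intron of Ino80dos on the same strand. Gm28535 had a fold of 307 opposite to Pask, a PAS domain kinase, where 64 nt lay in its own exons and 1680 nt in those of Pask. Gm43183 and Gm43184, TEC models on opposite strands, shared 2 near-identical spans of fold 276, with 542 nt in exons of Gm43184 in both. Gm43112 had a fold of 237 (log10 p -164) in an intron of Cdk14, a cyclin-dependent kinase gene, and covered 2379 exonic nt. Gm3764, Gm47061 and C030029H02Rik followed with folds of 201, 190 and 184. They were assigned to the miRNA gene Gm25641, to the transcription factor gene Tfap2a and to the TEC model Gm45426.

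Among the 10 most significant peaks, Gm44187 lay in an intron of Rab7, a GTPase of late endosomes, on the same strand, with a fold of 118, a log10 p of -145 and 683 exonic nt. Gm43972 and Gm10062 are long intergenic RNAs on opposite strands that shared 2 near-identical spans with folds of 121 and 119. Gm35585 had a fold of 137 in a span of 675 nt, of which 112 nt lay in its own exons and all 675 nt in those of the assigned gene Gm43652 on the other strand.

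After Ptprb, the protein-coding named genes on the same strand with the highest folds were Gm10722 and Magi3. Gm10722 and its assigned gene Gm10720 (fold 89.1) are predicted gene models that do not overlap, and the peak spans 38032 nt with exons of 10 genes, 651 nt in exons of Gm10722 and 669 nt in those of Gm10720. The value is uncertain because reads may be shared between like copies. Magi3, which encodes a scaffold protein, had a peak of fold 60.7 assigned to the sense intronic RNA Gm42696. Gbp4 and Gbp9, interferon-induced GTPases on the same strand, formed a pair with 3 peaks. These had folds of 19.0, 5.31 and 4.93, lay in exons of Gbp4 for 601, 61 and 151 nt and in those of Gbp9 for 0 nt. Gbp9 had 2 other peaks, of folds 1.31 and 1.42, and Gbp4 none, so the strongest values listed under Gbp9 came from spans in Gbp4 exons. Reads of such family members can be divided wrongly between copies. The label of the Gbp4 peak of fold 19.0 named a retained-intron transcript. On opposite strands, Bicd1 and Gm15785 (fold 83.4) and Tmem243 and Dmtf1 (fold 39.8) were the protein-coding named genes with the highest folds after Rabgap1. The Tmem243 peak of 91 nt ended at the outer end of Tmem243 and lay in an intron of Dmtf1. The Bicd1 peak named a retained-intron transcript and the Tmem243 peak a processed transcript, neither of them a coding form.

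Several long non-coding RNAs and TEC models were named by 3 or 4 peaks each. Kcnq1ot1 (ENSMUSG00000101609), an imprinted antisense RNA of the potassium channel gene Kcnq1, was named by 4 peaks with folds of 62.6, 47.4, 40.8 and 9.48 and log10 p of -13.9, -12.0, -74.8 and -1.69. They covered 11757, 10648, 3540 and 2070 nt of Kcnq1ot1 and 0 nt of Kcnq1 exons. All 4 were assigned to Kcnq1, which had 1 other peak, of fold 7.59, and none was assigned to Kcnq1ot1. 9330162G02Rik, a TEC model opposite to the imprinted ubiquitin ligase gene Ube3a, was named by 4 peaks, all in introns of Ube3a. Their folds were 32.2, 11.4, 11.4 and 9.48, with log10 p of -9.01, -2.09, -2.09 and -1.69. Another peak in Ube3a named Gm44830 on the same strand (11.4, log10 p -2.09). 4932422M17Rik was named by 4 peaks opposite to AI480526, itself a long intergenic RNA, with folds of 9.48, 4.74, 3.79 and 3.32, of which 3 overlapped its exons, and Gm38102 by 1 there (5.69). Gm26882 was named by 3 peaks opposite to Morf4l1, a chromatin gene, with folds of 1.79, 1.61 and 1.18 and with 300, 148 and 121 nt in exons of Morf4l1.

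Very long gene models gathered unrelated genes. Fgfr2, a growth factor receptor gene whose model spans 2960900 nt, was assigned 6 of the peaks, which named Abraxas2, Dmbt1, Btbd16, Cuzd1, Nsmce4a and Gm16477. Their folds were 32.2, 9.48, 3.79, 3.32, 1.95 and 2.77, none overlapped an exon of Fgfr2, and they lay between 258347 and 1347925 nt from a start of it. Gm20388, a protein-coding model of 4434882 nt, was assigned 5 peaks of folds 10.1, 4.43, 2.95, 2.66 and 1.63 that named 4 long non-coding RNAs, and it had no other peak.

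In 63 peaks (10.6%, 8.34 to 13.3) the assigned gene was a small RNA. They comprised 31 miRNA, 13 snoRNA, 10 small nuclear RNA, 4 miscellaneous RNA, 3 mitochondrial tRNA and 2 ribosomal RNA assignments. The whole small RNA gene lay inside the span in 54 (85.7%). Both ends of the span lay in exons of the named gene in 58 (92.1%) and in the small RNA itself in 10 (15.9%). In 30 (47.6%) the small RNA shared no base of the span with exons of the named gene. The pair shared a strand in 45 (71.4%, 59.3 to 81.1).

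Several of these pairs are hosts and the miRNAs they carry, while in others the miRNA lies on the other strand. Of 29 assigned miRNA genes, 13 were matched in the RefSeq miRNA table (GRCm38.p6), which gave 24 mature sequences with 24 different seeds. Those of the known loci below are printed to identify the assigned gene, with the seed (bases 2 to 8) in capitals.
Mir142b, mmu-miR-142b, chr11:87756906-87756925, minus strand: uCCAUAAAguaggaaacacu
Gm25641, mmu-miR-9b-5p, chr3:88215650-88215670, minus strand: uUCGGUUAucuagcuuuauga
Mir214, mmu-miR-214-3p, chr1:162223438-162223459, plus strand: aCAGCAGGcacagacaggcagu
Mir181b-1, mmu-miR-181b-5p, chr1:137966650-137966673, plus strand: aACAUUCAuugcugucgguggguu
Mir125b-2, mmu-miR-125b-5p, chr16:77646279-77646300, plus strand: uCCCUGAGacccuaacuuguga
Mir137, mmu-miR-137-3p, chr3:118433901-118433923, plus strand: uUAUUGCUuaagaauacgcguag
The peak assigned to Mir142b covered the whole model of Mir142hg, the host of a miRNA typical of blood cells, with 269 nt in its exons, a fold of 7.33 and a log10 p of -103. Mir142b lies in the intron, on the other strand. Gm25641 likewise lies on the strand opposite to its named gene Gm3764 and shares 0 nt with the exons of Gm3764. Dnm3os, the host of Mir214 on its own strand, had 2 near-identical peaks of fold 119 (log10 p -27.6) over 7926 and 7928 nt of exon, 110 nt of which are the miRNA gene. Gm4258 and Mir181b-1 (fold 53.1), Meg3, an imprinted long non-coding RNA, and Mir770 (24.7), Mir99ahg and Mir125b-2 (17.1), Gm26871 and Mir137 (17.1) and Mir124a-1hg and Mir124a-1 (13.3) were same-strand pairs. Mir181b-1 and Mir125b-2 lay between exons of the named gene and shared 0 nt with them.

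The snoRNA assignments included 4 classical hosts on the same strand. Zfas1 with Snord12 had a fold of 1.91 (log10 p -13.4), Snhg1 with Snord22 2.90 (-13.3), Rpl7a, a ribosomal protein gene, with Gm24134 1.36 (-14.3) and Rpl13a, another, with Snord33 3.32 (-1.34). In each the span ended in host exons, and 90, 59, 18 and 30 nt of the snoRNA lay in bases that the host annotation also counts as exon. Histone genes gave a further group: H2afj, H2afx and Hist1h2ai were named by peaks assigned to miRNA models on their other strand, with folds of 1.54, 1.36 and, in 2 overlapping spans, 3.45 and 3.79. The spans at H2afj and 1 of those at Hist1h2ai had both edges exactly on the outer ends of the miRNA model. Histone genes exist in many similar copies, so the division of reads among them is uncertain.

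Mitochondrial genes, which lie end to end and overlap by a few bases, contributed 6 of the 21 mitochondrial peaks in the list. The span at mt-Nd1 and mt-Ti (fold 2.16, log10 p -93.6) held 210 nt of mt-Nd1, a complex I subunit, and 2 nt of the tRNA. That at mt-Nd2 and mt-Tw (2.39, -78.8) held 238 nt and 2 nt. At mt-Atp6 and mt-Co3, 1 span (1.68) held 90 nt of mt-Atp6 and 1 nt of mt-Co3, and the next (3.18) held 1 nt and 291 nt. The spans at mt-Nd5 and mt-Nd6 (2.95) and at mt-Co1 and mt-Ts1 (6.77) ran the opposite way, with 14 and 3 nt of the named gene and the full 519 and 69 nt of the assigned gene. The assigned gene thus held 1 to 2 nt of the span in 3 of the 6 spans, and the named gene 1 to 14 nt in the other 3. In all 6 a start of the assigned gene lay inside the span, and the nearest start of the named gene was 591 to 1810 nt away. On what basis the annotation tool chose the assigned gene was not tested.

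Part of a gene-level reading of the list rested on these peaks. Of the 492 assigned genes, 232 (47.2%, 42.8 to 51.6) had no other peak and are in the list through them alone, 1.88% of the 12351 genes with a peak. Among the 306 assigned genes that are protein-coding this held for 67 (21.9%). Of the 508 named genes, 388 (76.4%, 72.5 to 79.9) were assigned no peak at all. They included 53 of the 118 protein-coding named genes, among them Rabgap1, Ptprb, Gbp4 and Cenpb, a centromere protein gene whose 2 peaks (folds 4.84 and 1.63) were assigned to Spef1. A fold of at least 5 in the peaks described was found in 298 assigned genes, of which 215 (72.1%, 66.8 to 76.9) had no other peak that strong. With 20727 distinct peaks for 12351 genes, a gene with no other peak is common. The matching shares over all genes were not computed, so nothing particular to these genes is read from the percentages.

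Of all genes with a peak, 3.98% were assigned a peak of the kind described (492 of 12351), which is the background for the counts of listed genes, and nothing is read from a count of 0. Of the 32 genes listed for the IL-15 receptor, JAK-STAT and RAS-ERK, 2 were assigned such peaks and 0 were named. Lyn, a SRC family kinase, was assigned 2 peaks that named the pseudogene 9430025C20Rik on the other strand (folds 45.5 and 3.79), each with 0 nt in Lyn exons. Its 2 other peaks had folds of 1.12 and 2.56, so its only fold above 5 came from a span in pseudogene exons.

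Of the 32 PI3K, AKT and mTOR genes, 4 were assigned such peaks and 1, Rheb, was named. Foxo1, a transcription factor inhibited by AKT, was assigned a peak that named the TEC model Gm38034 (11.4, log10 p -2.09). Its 2 other peaks had folds of 1.58 and 1.69. Pik3r1, the regulatory PI3K subunit, was assigned a peak that named the TEC model Gm36638 (11.4, log10 p -2.09). Beside it were 6 others from 1.25 to 6.74. Deptor, an mTOR inhibitor, had Gm9920 on the other strand (3.79, log10 p -1.64) beside 5 others that reached 199. Mapkap1, a subunit of mTOR complex 2, had 2 peaks that named the pseudogene Gm13408 (15.2 and 1.7, log10 p -2.91 and -2.11). Its 2 others had folds of 1.37 and 2.24. The Rheb peak (1.69) was assigned to the RNA gene Gm25363. All 8 spans that were assigned to genes of these 2 lists lay in introns, with 0 nt in exons of the assigned gene. None of the 32 NK effector genes and none of the 23 m6A writers, erasers and readers was named by or assigned such a peak.

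As a check of the cell type, all 10 NK markers (such as Ncr1 and Prf1) had a peak assigned in the list. So did 3 of 5 T cell markers, not Cd4 and Cd8a, 2 of 4 B cell markers, all 4 myeloid markers and both red cell markers. None of these markers was among the peaks described, a peak list gives no level, and the part of other cells in the peaks described was not tested.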

How the data were processed

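MeRIP-seq was done by the authors on 2 m6A immunoprecipitates and 2 inputs. Per the labels and the methods, the reads were aligned to GRCm38 with HISAT2, peaks were called with exomePeak and annotated with ChIPseeker. Other tools listed in the submitters' processing notes are cutadapt, fastp, HOMER, StringTie and edgeR, none of which made a value used here. The deposited list gives each peak a fold enrichment, a ratio of immunoprecipitate over input reads made by the authors, and a significance score, the log10 of the unadjusted peak-calling p-value. How the authors combined replicates is not given in the sources used here. The list has 0 columns per sample, so depth per library is unknown.

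Of 20751 rows, 24 exact repeats were removed. The named gene was read from the text of the exon label and compared with the assigned gene. Types, strands, exons (merged over transcripts) and starts came from GENCODE M21 for GRCm38, in which the sequence of 511 of 511 named transcripts matched the genome. The annotation release of the authors may differ from it. Types are those of the gene, and a protein-coding gene can be named through a transcript that does not code. Overlap required at least 1 nt. GGACT was searched on both strands. Intervals were Wilson for shares, order statistics for medians and exact Poisson for densities, at 95%, and cover counting error only. Python 3.11.15, pandas 2.3.3 and scipy 1.17.1 were used, and the functions were tested on simulated data with known answers.

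Peaks named in the text are the 10 with the highest fold, the 10 with the lowest p, those of the 5 named and 5 assigned genes with most peaks, the 3 highest folds per relative strand and coding status, and those of 4 gene lists. Cebpb, Wrnip1, Gimap1, H2-Q4, Cenpb and the miRNA, snoRNA, histone and mitochondrial genes were picked once their values had been seen. The peaks to describe and the lists were chosen with earlier results of these data known. No comparison between libraries was possible. Some results for single genes are not reported here.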

Additional observations from a re-analysis of the deposited data

How the results depend on the processing

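The 8 summary values were recomputed 59 times in all, and 37 stayed within the interval of the value in the text. Keeping repeated rows, leaving out the peaks assigned to Fgfr2 and counting 1 peak per gene pair moved none of the 8 outside its interval. With a peak p-value under 0.001 the same-strand share was 40.1%, the protein-coding share of named genes 28.5%, the share that overlaps an assigned exon 59.2%, the median fold 13.3 and the share with a fold of at least 5 61.7%. With a fold of at least 2 the protein-coding share was 19.9% and the assigned exon share 43.4%. With a fold of at least 5 the protein-coding share was 16.7%, the share nearer to an assigned start 34.0% and the median fold, by construction, 13.3. Thresholds of 3 and 10 gave shares of 71.8% and 35.7% in place of that for 5. Requiring 50% of the span in exons of the assigned gene lowered that share to 16.8%, and distance from the centre raised the share nearer to the assigned start to 47.6%. The wider motif DRACH, which has more possible sequences, gave 20.6 sites per kb and GGACT in exons of the named gene alone 0.890. A limit of 500 nt on the span, chosen after seeing the data, gave 11.3% of exon-labelled peaks, 30.8% on the same strand, 31.4% with an assigned exon, a median fold of 3.79, 38.4% with a fold of at least 5 and 1.20 GGACT per kb. Where the alternative does not itself set the value, the cause was not tested.

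No paired analysis was possible because the list has no column for any library, although both groups carry the replicate numbers 1 and 2. Leaving out each replicate was not run for the same reason. Peaks overlap and share genes, so the intervals describe this list and not the spread between mice, and depth limits which transcripts have a peak at all.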

Other observations

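The 5 peaks with an identifier outside the annotation used here had folds from 2.71 to 11.4 and log10 p from -1.31 to -2.09. Dancr, a long non-coding RNA, was named by a peak of 60 nt with a fold of 4.43 (log10 p -1.63) whose assigned identifier ENSMUSG00000053656 was not found. The named identifier ENSMUSG00000097437 had 2 near-identical peaks of fold 2.71 (log10 p -1.47) assigned to Lim2, a lens membrane protein gene. The named identifier ENSMUSG00000097769 had peaks of fold 11.4 and 3.79 assigned to small RNA genes.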
